A study of Mus musculus with 18 samples.

Results

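The 34 genes described here encode the IFT-B complex, the kinesin-2 motors and the BBSome with its assembly factors, in cultured mouse kidney cells. They were taken by name from a gene list, not by measured values, but the list was chosen with earlier results of these data known. All 34 were among the 49845 gene names of each library, and 33 reached 1 TPM, the deposited unit of transcript abundance scaled to a fixed total per library, in at least 3 libraries, as did 16718 gene names in all. Levels below are TPM after scaling between libraries. Ttc30a2 did not. It lay between 0 and 0.125 TPM, so it is given by its level only.

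The cells were IMCD3, a mouse line of the inner medullary collecting duct, the last stretch of the kidney tubule. Dync2h1 knockout, Ift140 knockout and wild-type (WT) cells were each kept under fluid flow of about 0.7 dyne/cm2 or in static chambers for 3 h, and RNA was sequenced from 3 libraries in each of the 6 groups, 18 in all. All groups share the strain background Tg(SV40E)bri/7, passages 10 to 15 and sequencing lane 1. The labels do not say how the knockouts were made, how many clones stand for each, or whether the libraries of a group came from separate cultures, so the p-values measure the spread between these libraries, which may be technical. The comparisons ask what flow changes in cells with and without these cilium genes, and how the knockouts differ from WT cells.

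A primary cilium is built and kept by intraflagellar transport, in which trains of proteins travel along its microtubules. The IFT-B complex, pulled by kinesin-2, carries cargo towards the tip, while IFT-A and the dynein-2 motor, to which Ift140 and Dync2h1 belong, bring trains back to the base. The BBSome rides on these trains and carries membrane receptors, mostly out of the cilium, and its loss causes Bardet-Biedl syndrome, which often affects the kidney. On tubule cells the cilium faces the urine and bends under flow.

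Ttc30b, which encodes an IFT70 protein of the IFT-B core, was lower under flow in all 3 genotypes. It has near-identical neighbours on the minus strand of chromosome 2 of GRCm38, each in a single exon, namely Ttc30b at chr2:75935849-75938585, Ttc30a2 at chr2:75975740-75978170 and Ttc30a1 at chr2:75978247-75981967. Each has 1992 coding bases. The first 120 of them, from GENCODE vM21, are shown because reads from these genes can be shared between them, and capitals mark the 14 positions at which the copies are not all alike.
Ttc30b: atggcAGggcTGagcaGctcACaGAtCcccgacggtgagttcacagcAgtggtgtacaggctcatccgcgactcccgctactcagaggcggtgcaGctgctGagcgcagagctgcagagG
Ttc30a1: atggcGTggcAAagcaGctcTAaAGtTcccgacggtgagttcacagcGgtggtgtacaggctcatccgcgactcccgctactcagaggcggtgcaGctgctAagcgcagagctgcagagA
Ttc30a2: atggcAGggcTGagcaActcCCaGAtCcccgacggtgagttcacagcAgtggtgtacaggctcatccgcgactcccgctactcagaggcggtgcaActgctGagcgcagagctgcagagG
Ttc30b was identical to Ttc30a1 at 94.9% and to Ttc30a2 at 94.9% of coding bases, and Ttc30a1 to Ttc30a2 at 95.1%. Of all stretches of 50 coding bases, 51.9% in Ttc30b, 39.9% in Ttc30a1 and 34.0% in Ttc30a2 occurred in that copy only. The split of reads between the copies is therefore uncertain, and their summed level is given beside each result for Ttc30b.

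Many genes of the cilium carry the X-box, the motif bound by RFX transcription factors, near their start. The promoter windows of RefSeq on GRCm38.p6, 250 bases before to 50 after the gene start, were available for 31 of the 34 genes, all but Ift80, Ift81 and Ttc30b. The palindromic form reads GTNNCC, any 2 bases and GGNNAC, and it was searched on both strands. A gene was counted if any of its windows held a match. That was so for 7 of these 31 genes (22.6%) and for 583 of all 27025 genes with a window (2.16%). The shorter form GTTGCC, also searched on both strands, was found in 13 of the 31 genes (41.9%) and in 3821 of all 27025 (14.1%). It can lie inside a match of the palindromic form. The matches are shown with 8 bases on each side, on the strand of the gene, with the motif in capitals, because the motif is a feature of these genes that their choice did not use.
Ttc26, chr6:38381483-38381512, plus strand: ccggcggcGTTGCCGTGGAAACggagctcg
Bbs7, chr3:36613489-36613518, minus strand: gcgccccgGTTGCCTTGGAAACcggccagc
Ift22, chr5:136908079-136908108, plus strand: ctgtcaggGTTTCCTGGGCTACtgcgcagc
Ift22, chr5:136908109-136908138, plus strand: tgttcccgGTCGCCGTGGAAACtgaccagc
Ift57, chr16:49699199-49699228, plus strand: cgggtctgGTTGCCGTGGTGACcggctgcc
Ttc30a2, chr2:75978182-75978211, minus strand: gttggcttGTTGCCATGGGAACaagcacac
Bbs1, chr19:4906605-4906634, minus strand: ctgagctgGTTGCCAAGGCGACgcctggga
Bbs4, chr9:59353464-59353493, minus strand: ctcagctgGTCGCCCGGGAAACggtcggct
Counted from the RefSeq start of each window, the motif began 33 bases before it in Ttc26, 121 in Bbs7 and 63 and 33 in Ift22. It began 87 before in Ift57 and 24 in Ttc30a2, and lay just after the start in Bbs1 and Bbs4. Gene starts in GENCODE vM21 can differ from these, as in Ttc26, which starts there at chr6:38381469, before its match. A match is a run of letters and shows no binding.

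Before the results, the libraries were read for their labels. Ift140 stood at 6.26, 6.44 and 7.45 TPM in the static Ift140 knockout libraries, against 16.5, 19.5 and 18.8 TPM in the static WT libraries. Under flow it stood at 7.65, 8.53 and 15.4 TPM in the Ift140 knockout libraries, against 16.5, 15.1 and 18.5 TPM in WT libraries, so the library labelled replicate 3 of Ift140 knockout flow reached the WT range. That library also lay farthest from the others of its group, and 16076 genes reached 1 TPM in it, against 14705 to 15397 in the other libraries, so results that rest on it are also given without it. Dync2h1 averaged 13.3 ± 3.29 TPM in static Dync2h1 knockout cells and 39.8 ± 5.86 TPM in static WT cells (SD, n = 3 each). All 6 listed epithelial markers were expressed. Of 12 markers of collecting duct principal cells, Hoxb7 stood at 9.56 to 21.2 TPM in every library, and Pax2 and Scnn1g also reached 1 TPM in at least 3 libraries, at 0.744 to 7.77 and 0 to 3.42 TPM. The water channels Aqp2, Aqp3 and Aqp4, the vasopressin receptor Avpr2, the sodium channel subunit Scnn1a and the factor Gata3 stayed under 1 TPM in every library. TPM keeps no sequencing depth, so the depth of each library is unknown.

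Across the 18 libraries the genes covered a wide range of levels, which TPM, being per length, allows to be compared. Ift20, which also works at the Golgi, had the highest mean at 51.5 TPM, followed by the IFT-B core genes Ift46 at 45.0 and Ift81 at 44.2 and by Arl6, the GTPase that recruits the BBSome to membranes, at 44.1 TPM. Bbs10 at 3.79, Ttc30b at 3.51, Ttc30a1 at 1.495 and Kif17 at 0.591 TPM were the lowest of the 33. Arl6 varied least between the 6 group means, with a coefficient of variation of 10.2%, and Kif17, Ttc30b and the BBSome subunit Ttc8 varied most, with 45.6%, 45.4% and 44.5%. For 22 of the 33 genes the highest group mean was that of static WT cells, and for 17 the lowest was that of Dync2h1 knockout cells under flow.

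**Figure D1:**
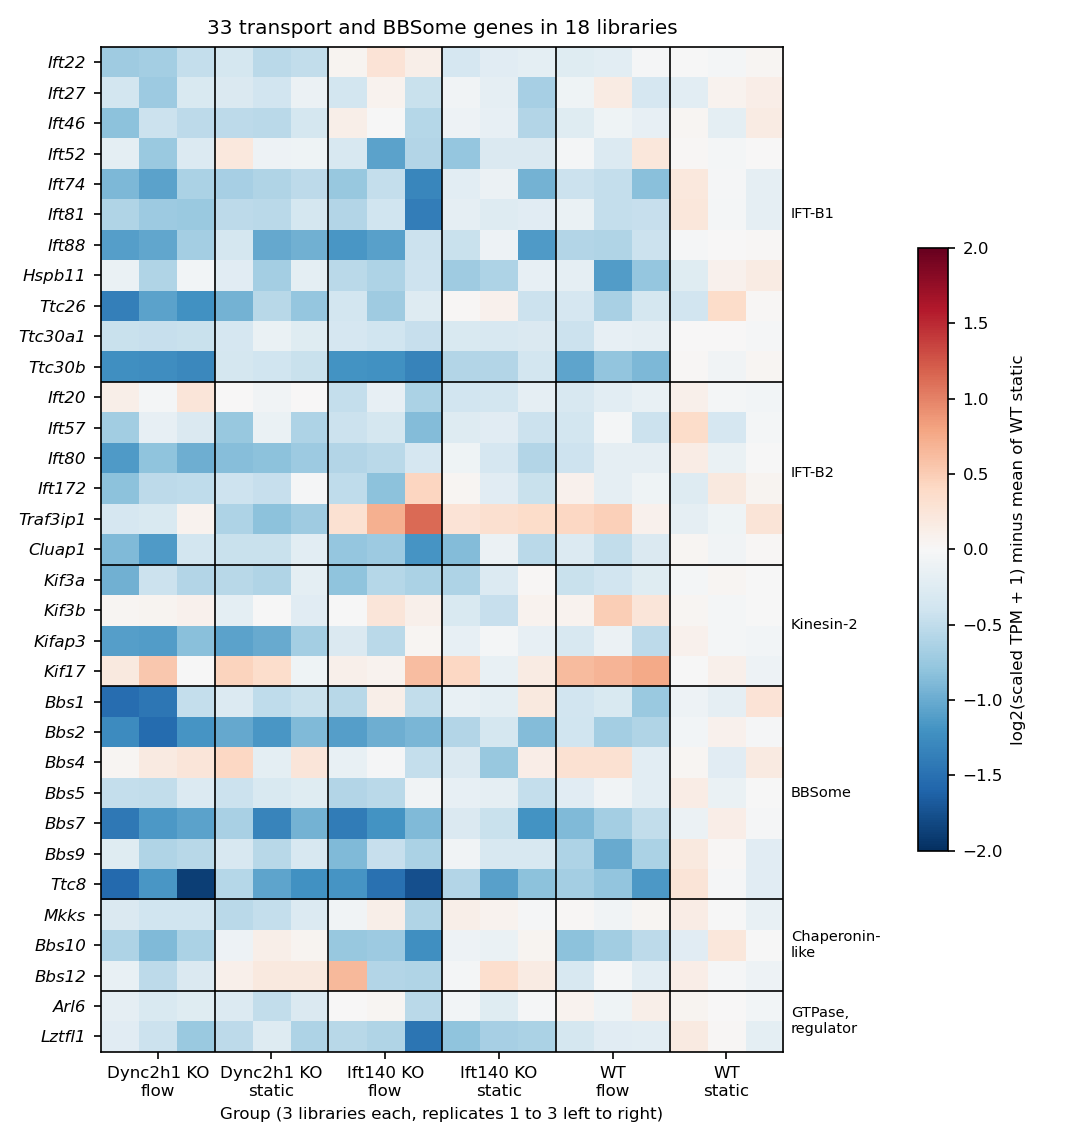
Level of 33 genes in 18 libraries, as log2(scaled TPM + 1) minus the mean of the 3 static WT libraries, with a column per library and a row per gene, grouped by complex. Blue is lower and red is higher than static WT cells. The static WT columns are near white, and the rows of Ttc30b, Bbs2, Bbs7 and Ttc8 are blue in the other 15 libraries.

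Summed over the 34 genes, the level was 532 to 586 TPM in Dync2h1 knockout libraries under flow and 583 to 640 TPM in static ones. It was 587 to 644 TPM in Ift140 knockout libraries under flow and 657 to 706 TPM in static ones. In WT libraries it was 687 to 702 TPM under flow and 828 to 877 TPM in static cells. The static WT libraries thus had the highest sums and overlapped with no other group. Without the library labelled replicate 3 of Ift140 knockout flow, the Ift140 knockout sums under flow were 614 and 644 TPM. In bulk RNA, fewer cells that express these genes and less of their RNA per cell cannot be told apart.

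**Figure D2:**
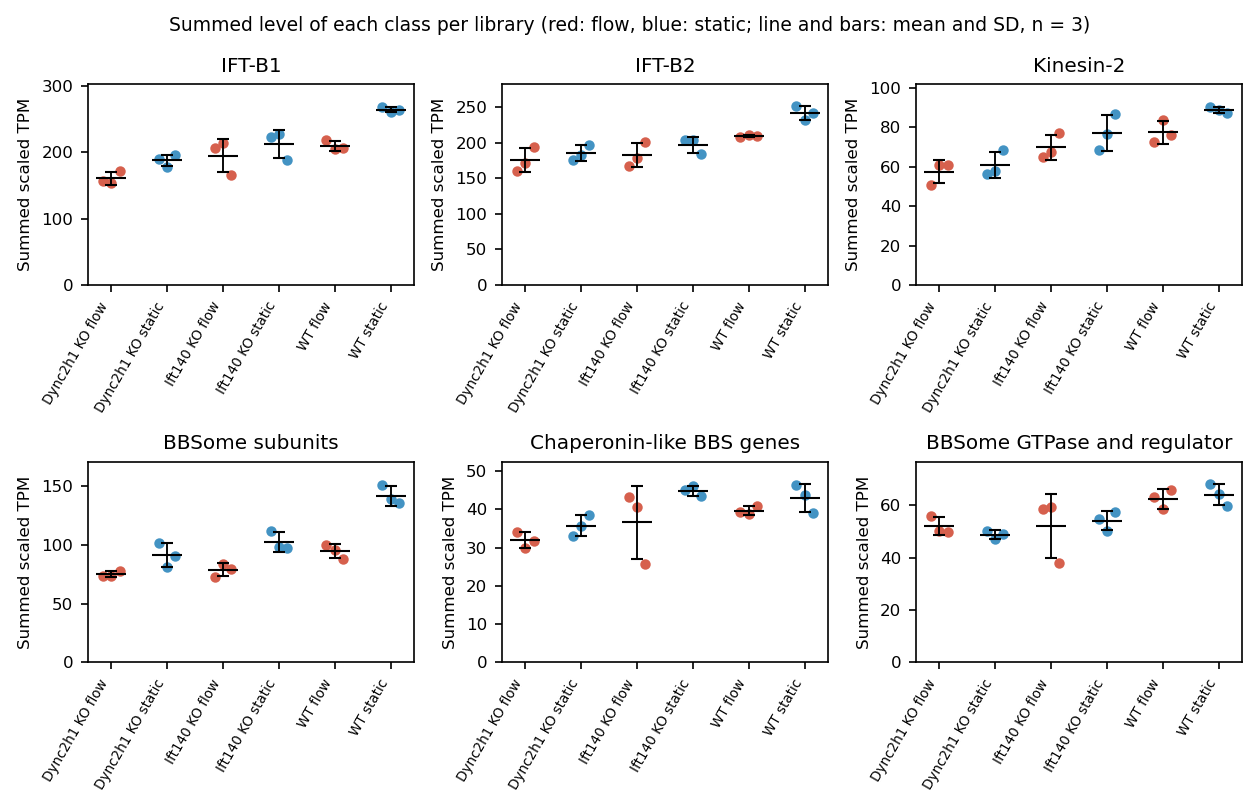
Summed scaled TPM of 6 classes of genes in each library, with a panel per class, a point per library and the mean ± SD of each group (n = 3). The BBSome subunits sum to 135 to 151 TPM in the static WT libraries and to 72.9 to 112 TPM in all others.

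In WT cells, 7 of the 33 genes were lower under flow and 1 was higher, and 4 of the 7 lower genes encode BBSome subunits. The higher gene was Kif17, which reached 1 TPM in 3 libraries mainly through the WT flow group, so its call is a description only. The test was limma with Benjamini-Hochberg adjustment over all 16718 genes and a threshold of adjusted p under 0.05. That is 21.2% lower, against a background of 10.3% of all genes lower, and 3.03% higher, against 10.2% of all genes higher. The median log2 difference, flow minus static, was -0.27 over the 33 genes and -0.01 over all genes, and 27 of the 33 (81.8%) were below 0, as were 51.8% of all genes. By class, the lower genes were 4 of 7 BBSome subunits, 2 of 11 IFT-B1 genes and 1 of 3 chaperonin-like genes, with none of the 6 IFT-B2 genes. Kif17 is 1 of the 4 kinesin-2 genes.

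Ttc30b stood at 2.40, 3.10 and 2.80 TPM in WT flow libraries, against 6.18, 5.74 and 6.26 TPM in WT static libraries. All 3 flow values lay below every static value, at 45.6% of the static mean, a log2 difference of -0.91 (SE 0.11, adjusted p = 3.38e-05). The Ttc30 copies together stood at 3.63, 4.86 and 4.51 TPM under flow, against 8.33, 7.85 and 8.29 TPM in static libraries, again with no overlap. Hspb11, the IFT25 subunit that pairs with Ift27, stood at 12.1, 5.84 and 7.66 TPM under flow, against 11.5, 14.7 and 15.5 TPM in static libraries. Its groups overlapped, since 1 flow library exceeded 1 static library, and the log2 difference was -0.69 (SE 0.22, adjusted p = 0.0402).

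Among the BBSome subunits, Bbs9, Bbs2, Ttc8 and Bbs7 were lower under flow in WT cells. Bbs9, part of the core of the complex, stood at 17.0, 12.6 and 16.7 TPM under flow, against 30.5, 27.1 and 22.6 TPM in static WT libraries. The groups did not overlap, and the log2 difference was -0.76 (SE 0.15, adjusted p = 0.0019). Bbs2, another core subunit at chr8:94067954-94098928, stood at 13.9, 11.2 and 11.9 TPM under flow, against 17.7, 19.7 and 18.2 TPM in static libraries. All flow values were lower, with a log2 difference of -0.56 (SE 0.14, adjusted p = 0.00897).

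Ttc8, a subunit made of tetratricopeptide repeats and also called BBS8, had the highest level of the 7 subunits in static WT cells. It stood at 22.7, 21.0 and 16.2 TPM in WT flow libraries, against 44.1, 36.3 and 31.5 TPM in static ones. Flow libraries were at 53.5% of the static mean without overlap, a log2 difference of -0.87 (SE 0.22, adjusted p = 0.00919). Bbs7, which pairs with Bbs2 in the core, stood at 8.73, 10.1 and 11.8 TPM under flow, against 15.5, 18.6 and 16.7 TPM in static libraries. These groups did not overlap either, and the log2 difference was -0.68 (SE 0.22, adjusted p = 0.0381). The other subunits did not pass the test. Bbs1, which binds Arl6, differed by -0.47, Bbs5, which binds membrane lipids, by -0.17, and Bbs4, which binds the satellite protein Pcm1, by 0.13 on the log2 scale.

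Bbs10 belongs to the chaperonin-like proteins that help to assemble the BBSome core. It stood at 2.42, 2.72 and 3.21 TPM in WT flow libraries, against 4.17, 6.06 and 5.00 TPM in WT static libraries. The flow values were all lower, at 54.8% of the static mean, and the log2 difference was -0.68 (SE 0.16, adjusted p = 0.00658). The related Mkks and Bbs12 did not pass, with log2 differences of 0.00 and -0.19. Mkks shares 29.3% of its exon bases with AL731706.1, annotated on the same strand, so its reads may be split.

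Kif17, the motor that works as a pair of like chains beside the heterotrimeric kinesin-2, was the gene that was higher under flow. It stood at 1.02, 1.08 and 1.2 TPM in WT flow libraries, against 0.291, 0.396 and 0.216 TPM in WT static libraries. The groups did not overlap, and the log2 difference was 0.69 (SE 0.21, adjusted p = 0.026). As deposited, Kif17 reached 1 TPM in 4 libraries, these 3 and the library labelled replicate 3 of Ift140 knockout flow. It thus passed the filter mainly through the group in which it was high and had to differ, and its call is given as a description. The heterotrimeric motor's subunits Kif3a and Kif3b and its adaptor Kifap3 did not pass, with log2 differences of -0.35, 0.27 and -0.32.

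The 4 genes Ttc30b, Bbs9, Bbs2 and Bbs10 passed in WT cells under all 16 alternative settings, Ttc8 in 15, and Hspb11 and Bbs7 in 9 each. Kif17 was lost in 5 of 15, those without WT static replicate 1 or 3 or without any 1 of the WT flow libraries. Without WT static replicate 3, or without WT flow replicate 2, 5 genes passed. Beside these genes, the summed level of 12 principal cell markers was 15.3 to 17.2 TPM under flow and 22.7 to 26.2 TPM in static WT libraries, that of 6 epithelial markers 3800 to 3900 and 2640 to 2770 TPM, and that of 10 markers of motile multiciliated cells 18.4 to 20.5 and 34.2 to 39.5 TPM. Of that last list, 8 of 10, including Mcidas and Gmnc, were under 1 TPM in every library, and Foxj1 made most of the sum. Within the epithelial list, Krt8 stood at 1774 to 1881 TPM under flow and 1134 to 1175 TPM in static WT libraries. Krt18 stood at 1009 to 1117 and 626 to 664 TPM, while Krt7 stood at 278 to 305 and 303 to 321 TPM. The part of all these markers in the flow results was not tested.

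In Dync2h1 knockout cells, 3 of the 33 genes were lower under flow and none was higher. Lower genes made 9.09% of them, against a background of 8.15% of all genes, a share near that background, while 10.8% of all genes were higher. The median log2 difference was -0.17, against 0.02 over all genes, and 23 of 33 were below 0. Ttc30b stood at 2.01, 1.99 and 1.89 TPM in Dync2h1 knockout flow libraries, against 4.51, 4.34 and 4.19 TPM in the static ones. The log2 difference was -0.85 (SE 0.11, adjusted p = 6.75e-05), with no overlap, and the Ttc30 copies together lay at 3.13 to 3.29 TPM under flow and 5.81 to 6.18 TPM in static cells.

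Bbs10 stood at 2.91, 2.28 and 2.89 TPM in Dync2h1 knockout cells under flow, against 4.62, 5.51 and 5.30 TPM in static ones. All flow values were lower, with a log2 difference of -0.73 (SE 0.16, adjusted p = 0.00423). Bbs1 stood at 4.29, 4.58 and 9.85 TPM under flow, against 11.5, 9.69 and 10.1 TPM in static libraries. Replicate 3 of the flow group lay inside the static range, the log2 difference was -0.74 (SE 0.25, adjusted p = 0.0479), and the call was lost under 11 of 16 alternatives, 5 of which leave out a library other than flow replicate 3.

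In Ift140 knockout cells, 3 genes were lower and 1 was higher under flow, 9.09% and 3.03% of the 33. The background was 8.27% of all genes lower and 9.21% higher, so the lower share was near it. Without the library labelled replicate 3 of Ift140 knockout flow, 2 were lower and 1 was higher. The median log2 difference was -0.21, against 0.01 over all genes, and -0.19 without that library. Ttc30b stood at 2.08, 2.06 and 1.80 TPM in Ift140 knockout flow libraries, against 3.72, 3.72 and 4.46 TPM in static ones. It was lower in each, with a log2 difference of -0.74 (SE 0.11, adjusted p = 0.000305), and -0.69 (adjusted p = 0.00112) without the library labelled flow replicate 3. The Ttc30 copies together stood at 3.02 to 3.49 TPM under flow, 3.40 and 3.49 TPM without that library, and 5.12 to 5.996 TPM in static cells.

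Bbs10 in Ift140 knockout cells stood at 2.56, 2.64 and 1.57 TPM under flow, against 4.62, 4.49 and 5.25 TPM in static libraries. The groups did not overlap, and the log2 difference was -0.85 (SE 0.16, adjusted p = 0.00172), and -0.68 (adjusted p = 0.00637) without the library labelled flow replicate 3. Ift81, which with Ift74 forms the tubulin-binding module of IFT-B, stood at 38.2, 43.7 and 21.5 TPM under flow, against 51.0, 48.5 and 49.2 TPM in static libraries. Its low value came from the library labelled flow replicate 3. With that library the log2 difference was -0.57 (SE 0.19, adjusted p = 0.0461), and without it -0.27 (adjusted p = 0.15).

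Ift22, a Rab-like subunit of IFT-B, was higher under flow in Ift140 knockout cells. It stood at 32.5, 38.1 and 34.0 TPM under flow, against 24.6, 26.4 and 27.2 TPM in static Ift140 knockout libraries. All flow values exceeded all static values, with a log2 difference of 0.40 (SE 0.09, adjusted p = 0.00547), and 0.42 (adjusted p = 0.0092) without the library labelled flow replicate 3. In the other genotypes it did not pass, with -0.17 in Dync2h1 knockout and -0.16 in WT cells. When only the groups compared entered the fit, none of the 33 genes passed in Ift140 knockout cells, with 0.0579 for Ttc30b, 0.0708 for Bbs10 and 0.0937 for Ift22 as adjusted p, and 7 passed without static replicate 3 or without flow replicate 1.

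**Figure D3:**
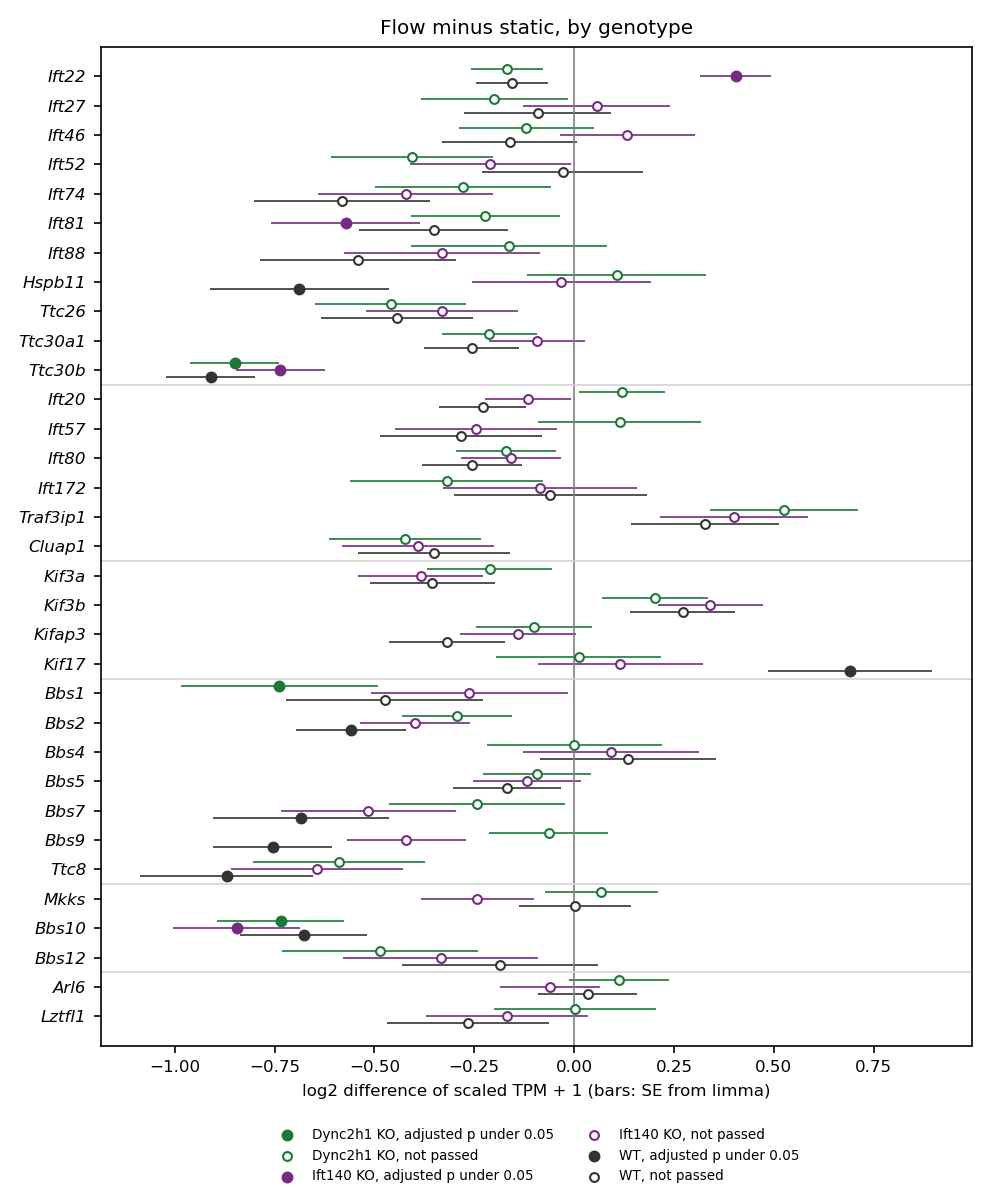
Flow minus static difference of log2(scaled TPM + 1) for 33 genes in Dync2h1 knockout (green), Ift140 knockout (purple) and WT cells (grey), as points with SE bars from limma. Filled points passed adjusted p under 0.05. Ttc30b and Bbs10 are filled and below 0 in all 3 genotypes, and Ift22 is filled above 0 in Ift140 knockout cells.

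Ttc30b and Bbs10 were lower under flow in each genotype, which is 2 of 33 genes (6.06%), as were 635 of all 16718 genes (3.80%). Without the library labelled replicate 3 of Ift140 knockout flow these were the same 2 genes, and 701 of all genes (4.19%). The 3 flow comparisons share no library. Whether a response differed between genotypes was tested as an interaction. None of the 33 genes passed for the Ift140 knockout minus WT response, with a background of 0.227% of all genes (0.0778% higher, 0.15% lower), or for the Dync2h1 knockout minus WT response, with 0.485% (0.179% higher, 0.305% lower). At an unadjusted p under 0.05 there were 1 and 4 genes, and 7.94% and 9.78% of all genes. Both differences use the WT libraries.

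Ift22 had a response difference of 0.56 (SE 0.13, 95% interval 0.29 to 0.83, adjusted p = 0.125) between Ift140 knockout and WT cells, and 0.58 (adjusted p = 0.0956) without the library labelled replicate 3 of Ift140 knockout flow. Bbs9 had one of 0.69 (SE 0.21, interval 0.24 to 1.14, adjusted p = 0.221) between Dync2h1 knockout and WT cells, since it stood at 22.3, 17.2 and 17.8 TPM under flow and 20.9, 17.8 and 21.1 TPM in static Dync2h1 knockout cells. Hspb11 had 0.80 (adjusted p = 0.399), Ift20 0.35 (0.455 as adjusted p) and Kif17 -0.68 (adjusted p = 0.448) in that same difference. The value of Kif17 is a description only, since this gene passed the filter mainly through the WT flow libraries. The calls of Bbs2, Ttc8 and Bbs7 in WT cells and their lack of one in the knockouts were not shown to differ. The Dync2h1 knockout minus WT response difference was 0.26 (interval -0.15 to 0.68) for Bbs2, 0.28 (-0.37 to 0.93) for Ttc8 and 0.44 (-0.22 to 1.10) for Bbs7. The Ift140 knockout minus WT one was 0.16 (-0.26 to 0.58) for Bbs2, 0.23 (-0.42 to 0.88) for Ttc8 and 0.17 (-0.49 to 0.83) for Bbs7. Ift81 differed by -0.22 (-0.78 to 0.34) in the Ift140 knockout and Bbs1 by -0.26 (-1.01 to 0.48) in the Dync2h1 knockout response, both against WT. Without the library labelled replicate 3 of Ift140 knockout flow, the Ift140 knockout differences were 0.12 for Bbs2, 0.37 for Ttc8, 0.03 for Bbs7 and 0.08 for Ift81, and none passed.

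**Figure D4:**
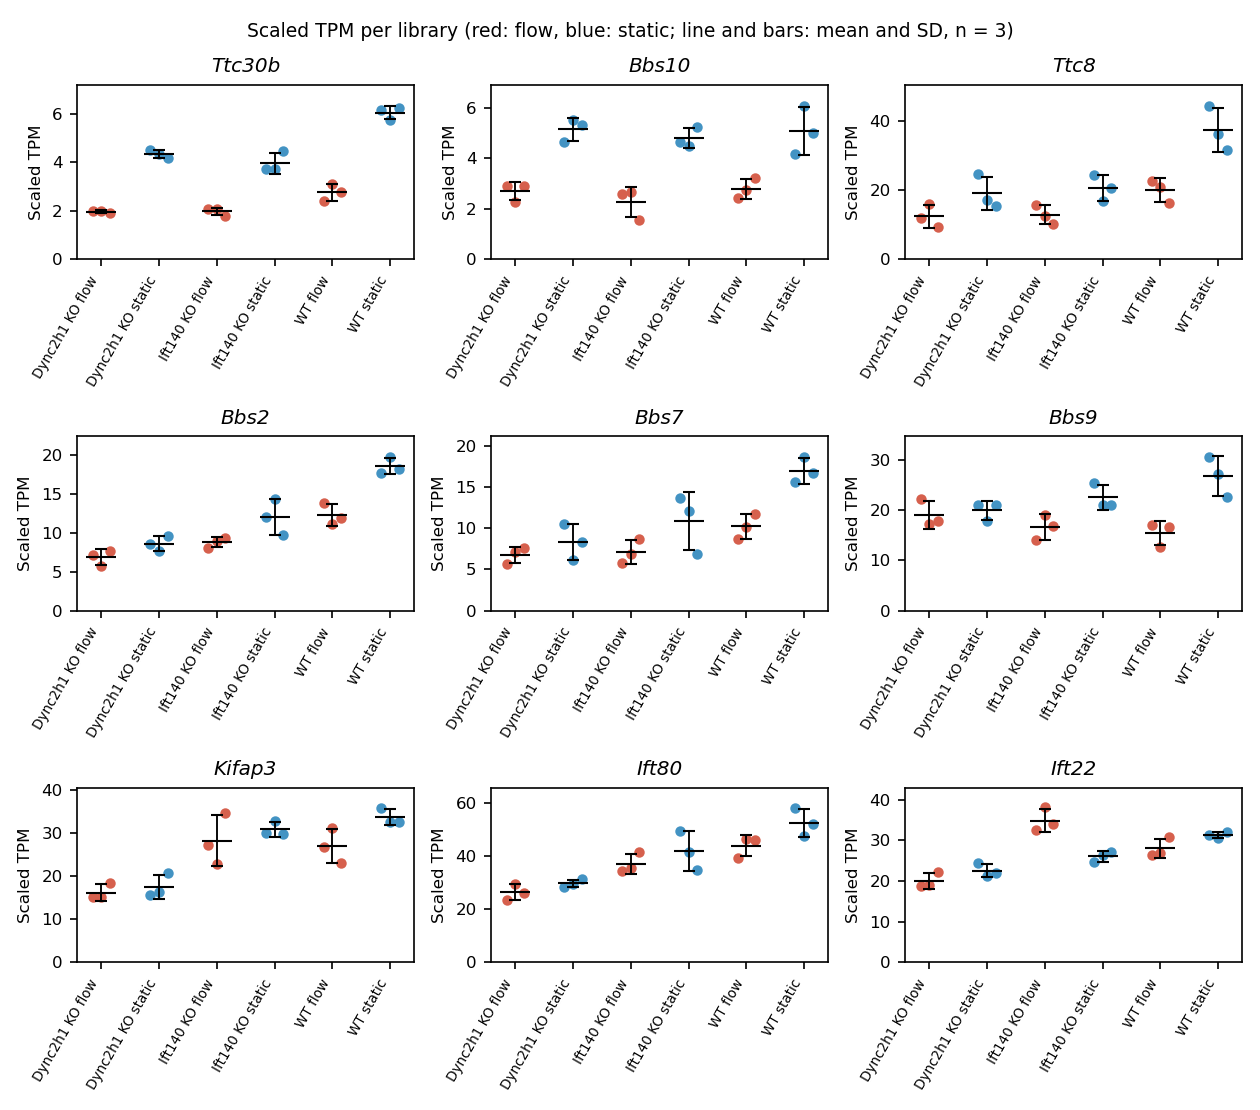
Scaled TPM of 9 genes in each library, with the mean ± SD of each group (n = 3), flow in red and static in blue. Ttc30b and Bbs10 are lower under flow in each genotype, while Kifap3 and Ift80 are lowest in Dync2h1 knockout cells in both conditions.

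In static culture, genes of each complex were lower in the Dync2h1 knockout than in WT cells. Of the 33, 14 were lower and none was higher, 42.4% against a background of 14.1% of all genes lower and 13.5% higher. The median log2 difference, knockout minus WT, was -0.41, against -0.01 over all genes, and 28 of 33 (84.8%) were below 0, as were 50.8% of all genes. The lower genes were 5 of 11 IFT-B1, 2 of 6 IFT-B2, 2 of 4 kinesin-2 and 3 of 7 BBSome subunit genes, with Mkks and Arl6.

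Bbs2 had the smallest p-value of these, at 8.57, 7.67 and 9.57 TPM in static Dync2h1 knockout libraries, against 17.7, 19.7 and 18.2 TPM in static WT libraries. The knockout values were all lower, at 46.4% of the WT mean, with a log2 difference of -1.03 (SE 0.14, adjusted p = 4.6e-05). Bbs7 stood at 10.5, 6.19 and 8.34 TPM in knockout libraries, against 15.5, 18.6 and 16.7 TPM in WT libraries. There was no overlap, and the log2 difference was -0.97 (SE 0.22, adjusted p = 0.00376). Ttc8 stood at 24.5, 17.2 and 15.4 TPM in knockout libraries, against 44.1, 36.3 and 31.5 TPM in WT libraries. These were also apart, with a log2 difference of -0.95 (SE 0.22, adjusted p = 0.00381), while Bbs9, the partner of Bbs2 and Bbs7 in the core, differed by -0.40 and did not pass (adjusted p = 0.0578).

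Ift80, a peripheral IFT-B2 subunit mutated in Jeune thoracic dystrophy, at chr3:68892499-69004570, stood at 28.5, 29.4 and 31.3 TPM in static Dync2h1 knockout libraries, against 58.2, 47.6 and 52.3 TPM in static WT libraries. Knockout levels were 56.5% of the WT mean without overlap, a log2 difference of -0.80 (SE 0.13, adjusted p = 0.000189). Traf3ip1, the IFT54 subunit that binds microtubules, stood at 6.13, 5.16 and 5.71 TPM in knockout libraries, against 8.69, 9.29 and 12.1 TPM in WT libraries. It was lower in each, with a log2 difference of -0.72 (SE 0.19, adjusted p = 0.0086). The remaining IFT-B2 genes Ift20, Ift57, Ift172 and Cluap1 did not pass, with log2 differences between -0.50 for Ift57 and -0.01 for Ift20. Cluap1 shares 22.4% of its exon bases with Gm20695 on the same strand.

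Kifap3, the adaptor that links Kif3a and Kif3b to cargo, stood at 15.5, 16.2 and 20.7 TPM in static Dync2h1 knockout libraries, against 35.8, 32.6 and 32.4 TPM in static WT libraries. Its groups were far apart, with a knockout level of 51.9% of WT and a log2 difference of -0.92 (SE 0.15, adjusted p = 0.000218). Ift22 stood at 24.4, 21.3 and 21.9 TPM in knockout libraries, against 31.2, 30.5 and 32.0 TPM in WT libraries. Its difference was smaller but steady across libraries, with a log2 difference of -0.46 (SE 0.09, adjusted p = 0.00129). Ttc26, the IFT56 subunit, stood at 10.7, 14.3 and 12.2 TPM in knockout libraries, against 16.2, 28.0 and 21.9 TPM in WT libraries. The highest knockout value was below the lowest WT value, and the log2 difference was -0.76 (SE 0.19, adjusted p = 0.00704).

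The other 6 genes that were lower in static Dync2h1 knockout cells had log2 differences between -0.78 and -0.36. They were Ift88, the core subunit disrupted in the polycystic kidney mouse (adjusted p = 0.0273), Ttc30b (adjusted p = 0.0139), Mkks (adjusted p = 0.0335), the motor subunit Kif3a (adjusted p = 0.0443), Arl6 (adjusted p = 0.0447) and Ift46, needed to carry outer dynein arms in Chlamydomonas (adjusted p = 0.0499). The Ttc30 copies together stood at 5.81 to 6.18 TPM in knockout and 7.85 to 8.33 TPM in WT static libraries. Bbs2, Ift80, Kifap3, Ift22, Bbs7, Ttc8, Ttc26, Traf3ip1 and Ttc30b passed under all 16 alternatives. Ift88 and Mkks were lost in 6 each, Kif3a and Arl6 in 9 each and Ift46 in 10. Without WT static replicate 1, 9 of the 33 genes passed. Beside these genes, the summed level of 5 proximal tubule markers, of which Slc34a1 and Slc22a6 were at 0 in every library, was 9.52 to 12.5 TPM in static Dync2h1 knockout and 433 to 436 TPM in static WT libraries. Most of that sum in WT cells was Cubn, at 3.70 to 4.35 TPM in the knockout and 407 to 413 TPM in WT libraries, while its partner receptor Lrp2 stood at 4.23 to 4.90 TPM in the knockout and 20.5 to 24.1 TPM in WT libraries. The 6 epithelial markers summed to 3490 to 3600 and 2640 to 2770 TPM, the 12 principal cell markers to 23.4 to 29.5 and 22.7 to 26.2 TPM, and the 10 motile cilia markers to 29.3 to 33.5 and 34.2 to 39.5 TPM. Of that last list, Foxj1 stood at 25.71 to 31 TPM in static Dync2h1 knockout and 25.96 to 29.72 TPM in static WT libraries. Ccdc39, of the same list, stood at 1.99 to 3.45 TPM in the knockout and 7.605 to 9.64 TPM in WT libraries. The part of all these markers in the knockout results was not tested.

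In the Ift140 knockout, 4 of 33 genes were lower than in WT cells in static culture and none was higher. That is 12.1%, against a background of 9.08% of all genes lower and 8.97% higher. The median log2 difference was -0.29, against 0.00 over all genes, and 29 of 33 (87.9%) were below 0. Both knockouts were set against the same WT libraries, so their values are given side by side. No overlap between them is read as a result. The static WT libraries are also the reference for flow in WT cells. Calls of the same gene there and in the static knockouts are thus not independent.

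Ttc30b stood at 3.72, 3.72 and 4.46 TPM in static Ift140 knockout libraries, against 6.18, 5.74 and 6.26 TPM in static WT libraries. All knockout values were lower, with a log2 difference of -0.51 (SE 0.11, adjusted p = 0.00497), and the Ttc30 copies together stood at 5.12 to 5.996 and 7.85 to 8.33 TPM. Bbs2 stood at 12.1, 14.3 and 9.65 TPM in knockout libraries, against 17.7, 19.7 and 18.2 TPM in WT libraries. It was at 64.7% of the WT mean without overlap, with a log2 difference of -0.60 (SE 0.14, adjusted p = 0.00652).

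Ttc8 stood at 24.2, 16.9 and 20.5 TPM in static Ift140 knockout libraries, against 44.1, 36.3 and 31.5 TPM in static WT libraries. The groups did not overlap, and the log2 difference was -0.83 (SE 0.22, adjusted p = 0.0141). Lztfl1, which holds back BBSome traffic into the cilium, stood at 8.51, 9.50 and 9.72 TPM in knockout libraries, against 17.9, 15.9 and 13.5 TPM in WT libraries. All knockout values were lower, with a log2 difference of -0.70 (SE 0.20, adjusted p = 0.0253). Bbs7 just missed the threshold, with -0.64 (adjusted p = 0.055). Ttc30b and Bbs2 passed under all 16 alternatives, Ttc8 was lost in 2 and Lztfl1 in 6, and without WT static replicate 1 only 2 of the 33 genes passed. Of the proximal tubule markers, Cubn stood at 2.28 to 4.04 TPM in static Ift140 knockout and 407 to 413 TPM in static WT libraries, while Lrp2 lay the other way, at 77.2 to 82.9 and 20.5 to 24.1 TPM. The epithelial markers summed to 3590 to 3920 and 2640 to 2770 TPM, and the motile cilia markers to 38.8 to 43.9 and 34.2 to 39.5 TPM.

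**Figure D5:**
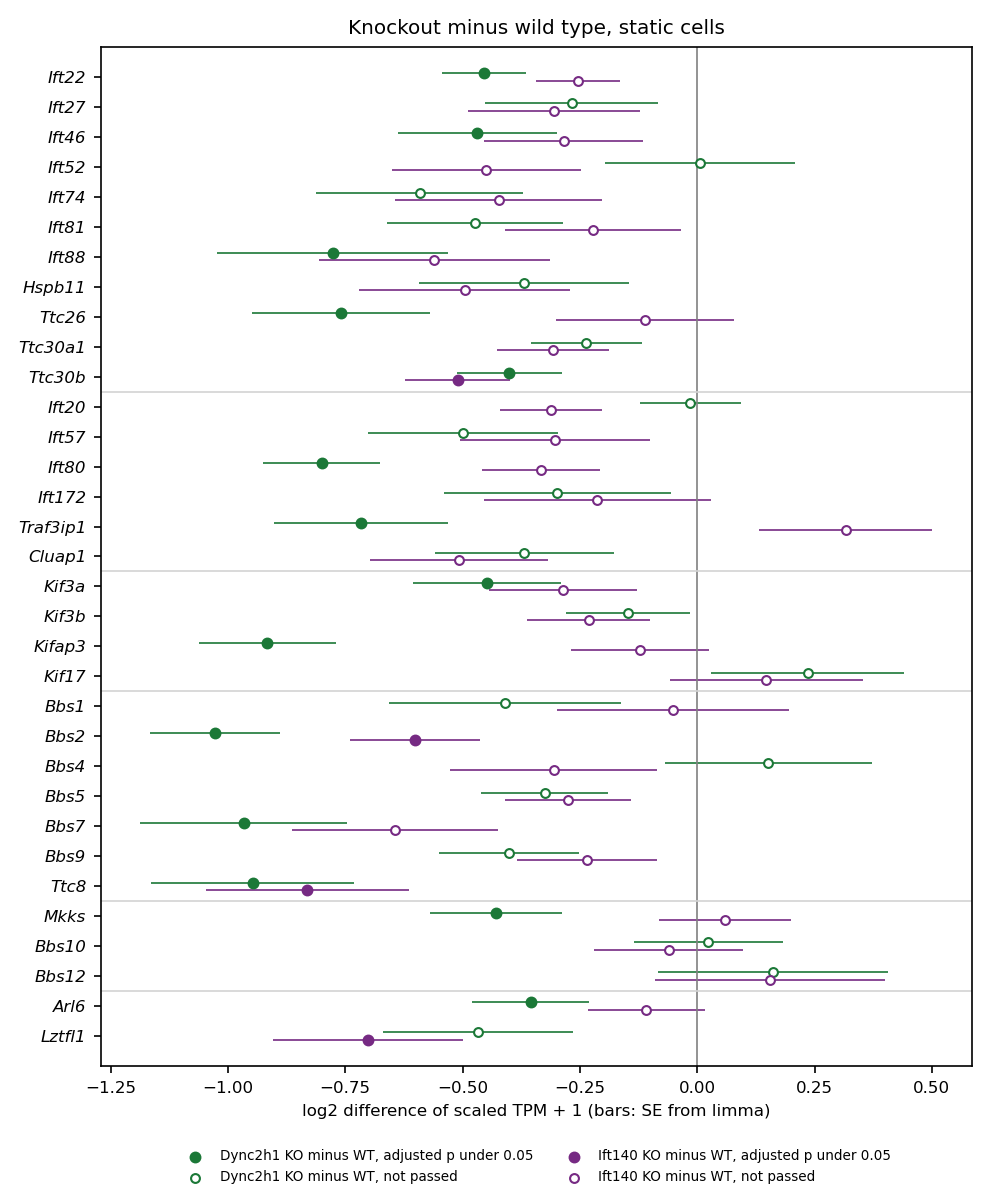
Knockout minus WT difference of log2(scaled TPM + 1) in static cells for 33 genes, with Dync2h1 knockout in green and Ift140 knockout in purple, as points with SE bars from limma. Filled points passed adjusted p under 0.05, and both sets use the same 3 WT libraries. Kifap3, Ift80, Traf3ip1 and Ttc26 are filled for the Dync2h1 knockout and open for the Ift140 knockout.

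Under flow, 8 genes were lower and 1 was higher in Dync2h1 knockout than in WT cells, 24.2% and 3.03% of the 33, against a background of 14% lower and 16.1% higher, together 30.1% of all genes. Ift80 stood at 23.5, 29.6 and 26.1 TPM in Dync2h1 knockout flow libraries, against 39.3, 46.3 and 46.3 TPM in WT flow libraries. It was lower in each, with a log2 difference of -0.72 (SE 0.13, adjusted p = 0.000465). Bbs2 stood at 7.21, 5.72 and 7.65 TPM in knockout libraries, against 13.9, 11.2 and 11.9 TPM in WT libraries. There was no overlap, with a log2 difference of -0.76 (SE 0.14, adjusted p = 0.000618). Ift22 stood at 18.8, 19.0 and 22.1 TPM, against 26.3, 26.9 and 30.8 TPM in WT libraries under flow. Its log2 difference was -0.47 (SE 0.09, adjusted p = 0.000974), beside -0.46 in static culture.

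Kifap3 under flow stood at 15.0, 15.0 and 18.4 TPM in Dync2h1 knockout libraries, against 26.6, 31.04 and 23.1 TPM in WT libraries. All knockout values were lower, with a log2 difference of -0.70 (SE 0.15, adjusted p = 0.00186). Ttc26 stood at 7.69, 9.67 and 8.75 TPM in knockout libraries, against 16.8, 13.4 and 16.7 TPM in WT libraries. It was at 55.7% of WT without overlap, with a log2 difference of -0.77 (SE 0.19, adjusted p = 0.00574). Ift20 was the gene that was higher, at 61.5, 54.7 and 66.8 TPM in knockout libraries, against 45.1, 48.4 and 50.6 TPM in WT libraries. Its log2 difference was 0.34 (SE 0.11, adjusted p = 0.0277), and it was lost under 7 alternatives, among them the values as deposited.

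Ttc8 stood at 11.9, 15.9 and 9.29 TPM in Dync2h1 knockout cells under flow, against 22.7, 21.0 and 16.2 TPM in WT cells under flow. The highest knockout value lay just below the lowest WT value, and the log2 difference was -0.67 (SE 0.22, adjusted p = 0.0291). Ttc30b stood at 2.01, 1.99 and 1.89 TPM, against 2.40, 3.10 and 2.80 TPM in WT libraries. Its log2 difference was -0.34 (SE 0.11, adjusted p = 0.031), and the Ttc30 copies together stood at 3.13 to 3.29 and 3.63 to 4.86 TPM. Traf3ip1 was also lower, with -0.52 (SE 0.19, adjusted p = 0.0453). Ift80, Bbs2, Ift22, Kifap3 and Ttc26 passed under all 16 alternatives, and 5 genes passed without WT flow replicate 2 or without Dync2h1 knockout flow replicate 1. Under flow, Cubn stood at 3.07 to 4.12 TPM in Dync2h1 knockout and 351 to 430 TPM in WT libraries, and Lrp2 at 2.70 to 3.52 and 14.7 to 20.7 TPM.

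In the Ift140 knockout under flow, 2 genes were lower than in WT cells and 1 was higher, 6.06% and 3.03%, against a background of 7.52% lower and 7.73% higher. Without the library labelled replicate 3 of Ift140 knockout flow, 4 passed, with Ift22 higher and Bbs2, Ift172 (-0.60, adjusted p = 0.0333) and Bbs5 (-0.39, adjusted p = 0.0423) lower. Ift22 stood at 32.5, 38.1 and 34.0 TPM in Ift140 knockout libraries, against 26.3, 26.9 and 30.8 TPM in WT libraries. It was higher in each, with a log2 difference of 0.31 (SE 0.09, adjusted p = 0.0313), and 0.32 (adjusted p = 0.0428) without that library. Bbs2 stood at 8.07, 8.93 and 9.34 TPM in knockout libraries, against 13.9, 11.2 and 11.9 TPM in WT libraries. The knockout values were lower, with -0.44 (SE 0.14, adjusted p = 0.0419), and -0.48 (adjusted p = 0.0499) without that library.

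Ift52, a core subunit that holds IFT-B together, stood at 9.43, 5.19 and 7.71 TPM in Ift140 knockout flow libraries, against 11.7, 9.77 and 14.3 TPM in WT flow libraries. The groups did not overlap, with a log2 difference of -0.63 (SE 0.20, adjusted p = 0.0463), and -0.67 (adjusted p = 0.0685) without the library labelled flow replicate 3. None of these 3 genes held under all 16 alternatives, and none passed when only the groups compared entered the fit. Without any 1 of the WT flow libraries 1 gene passed, and without Ift140 knockout flow replicate 1 there were 5. Under flow, Cubn stood at 3.90 to 5.996 TPM in Ift140 knockout and 351 to 430 TPM in WT libraries. Lrp2 lay the other way, at 75.3, 63.3 and 111 TPM in Ift140 knockout libraries, the last in the library labelled replicate 3, and 14.7 to 20.7 TPM in WT libraries.

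Over the 7 comparisons between groups, 23 of the 33 genes (69.7%) passed at least once, as did 58.1% of all genes. Kif17 is among these 23, although its call is a description only. The other 10 passed in none with all libraries in the fit, namely Ift27, a small GTPase, Ift74, Ttc30a1, Ift57, Ift172, the largest IFT-B subunit, Cluap1, Kif3b, Bbs4, Bbs5 and Bbs12. Ift172 stood at 26.96 to 65.7 TPM and Bbs4 at 4.44 to 11.3 TPM over all libraries. Of these 10, Ift74 had the smallest adjusted p, in the static Dync2h1 knockout, with a log2 difference of -0.59 (interval -1.06 to -0.12, adjusted p = 0.058).

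The other transport genes gave counts of their own. Of 7 IFT-A genes, whose complex joins IFT-B on the trains, 3 were lower under flow in WT cells, against 10.3% of all genes, namely Wdr19 with a log2 difference of -0.82, Ttc21b with -0.68 and Ift122 with -0.44. Under flow 1 was lower in Dync2h1 knockout cells, against 8.15% of all genes, Wdr19 with -0.54, and 1 in Ift140 knockout cells, against 8.27%, Ttc21b with -0.47, which was -0.31 (adjusted p = 0.0957) without the library labelled flow replicate 3. In static culture 3 IFT-A genes were lower in the Dync2h1 knockout, against 14.1% of all genes, Wdr19 with -0.98, Ift122 with -0.75 and Wdr35 with -0.50. In the Ift140 knockout 4 were lower, against 9.08% of all genes, among them Ift140 itself, Wdr19 with -0.90 and Ift122 with -0.42. The median over the 7 genes was -0.44 for flow in WT cells, -0.45 for the static Dync2h1 knockout and -0.42 for the static Ift140 knockout, against -0.01, -0.01 and 0.00 over all genes.

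Of the 10 dynein-2 genes 9 were tested. Under flow 1 of the 9 was lower in WT cells, against 10.3% of all genes, and 1 in Ift140 knockout cells, against 8.27%. Wdr60, an intermediate chain, was lower under flow in WT cells with -0.73 and in Ift140 knockout cells with -0.58, or -0.67 (adjusted p = 0.0153) without the library labelled flow replicate 3. Dync2li1, the light intermediate chain, was lower in the static Dync2h1 knockout with -0.72, as was Wdr60 with -0.57. The median over the 9 genes was -0.16 for flow in WT cells and -0.15 for the static Dync2h1 knockout, against -0.01 and -0.01 over all genes.

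Of 11 partners of the BBSome and kinesin-2, 3 were lower under flow in WT cells, against 10.3% of all genes, namely Rabl2, a GTPase that binds IFT-B, with -0.84, Pde6d, which ferries lipid-bearing proteins, with -0.72, and Arl13b, a ciliary GTPase, with -0.29. The same number was lower in the static Dync2h1 knockout, against 14.1% of all genes, with -0.87 for Arl13b (adjusted p = 2.18e-06), -0.77 for Rabl2 and -0.55 for Pde6d. None passed in the static Ift140 knockout. Under flow 1 partner was higher in Dync2h1 knockout cells, against 10.8% of all genes.

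Of 13 transcription factors of ciliary genes 8 were tested. Foxj1, the factor of motile cilia, stood at 10.3, 14.7 and 13.6 TPM in WT flow libraries, against 26.0, 29.7 and 29.2 TPM in WT static libraries. It was lower under flow in each genotype, with log2 differences of -1.02 in Dync2h1 knockout cells, -0.90 in Ift140 knockout cells and -1.09 in WT cells (SE 0.13 each). Without the library labelled replicate 3 of Ift140 knockout flow the Ift140 knockout difference was -0.83 (adjusted p = 0.000799). Of the RFX factors, Rfx1 was lower under flow in WT cells with -0.49, and Rfx5 was lower under flow in Dync2h1 knockout cells with -0.96 but higher in static Dync2h1 knockout than in static WT cells, with 0.64.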

How the data were processed

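RNA from 18 libraries was analysed. Per the submitters' processing notes, reads were handled with FastQC 0.11.5, Bowtie2 2.1.0 and RSEM 1.2.31, and the builds mm10 and GRCm38.p5 are named. Settings and annotation release are not given in the sources used here. The authors deposited TPM per gene name, a unit read from the values, whose gene rows sum to the same total in each library. The row that repeats this total was left out.

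Libraries were scaled by a trimmed mean of log ratios (30% of ratios and 5% of abundances trimmed). The test covered the gene names that reached 1 TPM in 3 or more libraries as deposited, with limma 3.58.1 in R 4.3.3 on log2(scaled TPM + 1), with 6 group means, a mean-variance trend and 12 residual degrees of freedom. Fold changes are on this scale, which understates those of low genes. A gene passed at a Benjamini-Hochberg adjusted p under 0.05.

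The members and the lists were chosen with earlier results of these data known. Every member is named, and those that passed are given per library, up to 8 per comparison by smallest p. Other genes named are members of 4 lists that passed, up to 3 per list and comparison. Not all list members that passed are named, and the calls of these lists in the knockouts against WT cells under flow are not given. Replicate numbers did not pair the libraries (correlations between -0.18 and 0.10). No library pair had more than 1.45% of equal values. Coordinates of genes are from GENCODE vM21 (GRCm38), and those of motif matches are from the RefSeq promoter windows. Likeness of the Ttc30 copies was computed from coding bases, since a protein table was not used here. Percentages and intervals (95%) were computed in R and Python 3.11.15.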

Additional observations from a re-analysis of the deposited data

How the results depend on the processing

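The counts of genes that passed were recomputed under alternatives listed with the plan: values as deposited, quantile normalisation, pseudocounts of 0.1 and 5, no filter, a filter of 5 TPM, only the groups compared, a replicate block, no trend, weights per library, and each library left out. With weights per library the count was 13 in place of 8 for flow in WT cells, 9 in place of 4 for flow in Ift140 knockout cells, 9 in place of 4 for the static Ift140 knockout, 5 in place of 3 for the Ift140 knockout under flow and 16 in place of 9 for the Dync2h1 knockout under flow. With only the groups compared it was 0 for flow in Ift140 knockout cells, 0 for the Ift140 knockout and 14 for the Dync2h1 knockout, both under flow. With values as deposited it was 1 for the Ift140 and 16 for the Dync2h1 knockout under flow, where this scaling moved the median of all genes to -0.10. With no filter it was 9 in place of 14 for the static Dync2h1 knockout and 1 for the Ift140 knockout under flow. The causes were not tested.

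Leaving out 1 library gave 5 to 6 genes for flow in WT, 3 to 7 in Ift140 knockout and 2 to 4 in Dync2h1 knockout cells, 2 to 5 for the static Ift140 and 9 to 11 for the static Dync2h1 knockout, and 1 to 5 and 5 to 9 for these knockouts under flow. The replicate block gave 7, 6 and 3 genes for flow in WT, Ift140 knockout and Dync2h1 knockout cells, 4 and 14 for the static Ift140 and Dync2h1 knockouts, and 4 and 9 under flow. No gene passed as a response difference under any of the 22 alternatives of each. Of the values of single genes that passed, 578 kept their direction and call, 141 kept the direction without the call, and 0 changed sign. Over all genes, with only the groups compared, 604 in place of 2922 passed for flow in Ift140 knockout cells and 616 in place of 2550 for the Ift140 knockout under flow. For the response difference of the Ift140 knockout it was 6 in place of 38, 19 with values as deposited, 22 with the replicate block, 78 with weights per library and 12 to 57 with 1 library left out. For that of the Dync2h1 knockout it was 152 in place of 81, 317 with weights per library and 42 to 59 with 1 library left out. TPM keeps no depth, so what depth limits cannot be given.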
